A study of Mus musculus with 6 samples.

Results

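The genes described here are the liver X receptors (LXR) and the genes that move cholesterol out of the cell or store, sense and oxidize it, as measured by RNA-seq in mdx mouse myoblasts after PSB-KD107 or after vehicle. They were chosen by gene symbol and comprised 9 of the 47069 genes in the count table, namely Nr1h2, Nr1h3, Abca1, Abcg1, Apoe, Scarb1, Soat1, Ch25h and Cyp27a1. Of these, 8 had enough counts to be tested, and Abcg1 did not. The question was whether these genes moved with or against the genes of cholesterol synthesis, whose levels were higher after treatment.

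Both groups consisted of muscle stem cells (satellite cells) of mdx mice, which carry a mutation of the dystrophin gene and serve as a model of Duchenne muscular dystrophy. The cells were sorted from muscle by the surface proteins Itga7 and Itgb1 after removal of cells with Sca-1, CD45, CD31 or CD11b, grown as myoblasts in a medium with serum and FGF2, and received vehicle (DMSO in aqueous buffer, n = 3 libraries) or PSB-KD107 at 10 μM (n = 3 libraries), a synthetic agonist of the lipid receptor Gpr18. The sample records give a treatment of 2 days and name the compound PSB-KD-1, the series text names it PSB-KD107, and the methods describe an overnight treatment of cells from different mice. Which library came from which mouse is not given in the sources used here. The methods give an age for male mdx mice that were injected, and do not tie it to the cultured cells. The total of counts ranged from 30917613 to 48756794 between libraries, so that 3 counts, the floor used here, corresponded to between 0.0615 and 0.0970 CPM (the count scaled to the total of its library). Floors and count intervals cover counting error only.

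Cells control free cholesterol by opposing programs. When sterol in the endoplasmic reticulum is low, the transcription factor SREBP2 is cut free and turns on the enzymes of synthesis and the uptake of lipoproteins. When oxysterols, the oxidized forms of cholesterol, accumulate, they bind the LXR receptors, which with their partner RXR turn on Abca1, Abcg1 and Apoe for export, the ubiquitin ligase Mylip, and Srebf1 and its fatty acid targets. Desmosterol, an intermediate of synthesis, also activates LXR, so that synthesis and efflux can be raised together or in opposition.

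Promoter sequences are shown first, because 3 genes that share a rare pattern of letters had unlike log2 fold changes in these data. LXR and RXR bind a direct repeat of the hexamer AGGTCA with 4 bases in between. The promoters listed by RefSeq (GRCm38.p6) run from 250 bases before to 50 bases after a gene's start, and 7 of the 9 genes had an entry. The exact repeat, searched on both strands, was present in 5 of 32851 promoters (4 of 27025 genes) and in 0 of these 7 genes. Up to 3 mismatches over the 12 letters of the hexamers were then allowed, a limit chosen after the promoters had been seen. With this limit 21.9% of promoters held a match. Counted by gene, with a match in any listed promoter, the share was 24.5%. Among the genes with an entry, a match was held by 1 of the 7, Abca1, 4 of 14 genes of cholesterol synthesis and 3 of 12 other LXR target genes. The stretch matched in Abca1 was found letter for letter in 1 other promoter, that of Fasn, and the same hexamers with another spacer were found in 1 more, that of Srebf1, so that 3 of the 32851 promoters held them. The sequences below are written 5′ to 3′ on the strand of the gene with the match in capitals, where the repeat reads on the opposite strand, followed by the promoter of the synthesis gene Hmgcs1 with the sterol element TCACNCCAC, a site read by SREBP, in capitals.
Abca1: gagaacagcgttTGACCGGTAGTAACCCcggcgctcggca
Fasn: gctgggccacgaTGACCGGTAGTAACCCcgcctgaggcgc
Srebf1: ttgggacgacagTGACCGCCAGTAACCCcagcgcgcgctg
Hmgcs1: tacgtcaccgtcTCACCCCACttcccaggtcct

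The Abca1 stretch lies at chr4:53159935-53159974 on the minus strand and its match begins at position -67 relative to the start. The Fasn stretch lies at chr11:120824745-120824784 (minus strand, match at -225), that of Srebf1 at chr11:60210626-60210665 (minus strand, match at -182, at 1 of its 3 listed starts) and that of Hmgcs1 at chr13:119690202-119690234 (plus strand, match at -137). The sterol element was present in 1.24% of all promoters (1.44% of genes) and in 0 of the 7 genes. It was present in 1 of 14 genes of cholesterol synthesis with an entry (Hmgcs1) and in 2 of 12 other LXR target genes (Mlxipl and Abca3). The hexamer alone was present in 16.3% of promoters (18.1% of genes) and in 0 of the 7 genes. The E-box CACGTG was present in 7.15% of promoters (8.09% of genes) and in 1 of the 7, again Abca1. A match is a description of the letters in this window and not a measurement of binding.

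In these myoblasts the Nr1h2 transcript was far more abundant than that of Nr1h3. Nr1h2 (ENSMUSG00000060601, chromosome 7 from 44549616 to 44553951 in GRCm38) encodes LXRβ, which is expressed in most tissues, and Nr1h3 (ENSMUSG00000002108, chromosome 2 from 91184061 to 91202834) encodes LXRα, which is high in liver, fat and macrophages. Per length of exon, Nr1h2 stood at 15.9 ± 0.764 FPKM with vehicle and 17.2 ± 1.35 FPKM with PSB-KD107, and Nr1h3 at 0.268 ± 0.0196 and 0.304 ± 0.113 FPKM (mean ± SD, n = 3). The ratio of the Nr1h2 to the Nr1h3 level per length was between 54.9 and 62.0 in the vehicle libraries and between 44.7 and 90.6 in the PSB-KD107 libraries, so that the ranges of both groups overlapped.

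Neither receptor differed between the groups by more than the spread between libraries. Nr1h2 was measured at 56.2, 52.4 and 51.3 CPM in the vehicle libraries numbered 1, 2 and 4, and at 62.2, 57.4 and 53.2 CPM in the PSB-KD107 libraries with these numbers. The groups overlapped, and the log2 fold change of 0.11 had a 95% interval from -0.13 to 0.36 (adjusted p = 0.772, from the quasi-likelihood test of edgeR, here called edgeR). Nr1h3 had 27, 25 and 20 counts with vehicle and 45, 30 and 16 counts with PSB-KD107, and its log2 fold change of 0.18 had a wider interval, from -0.73 to 1.09 (edgeR adjusted p = 0.903). Of its exonic bases, 1.35% are shared with Gm13783.

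**Figure D1:**
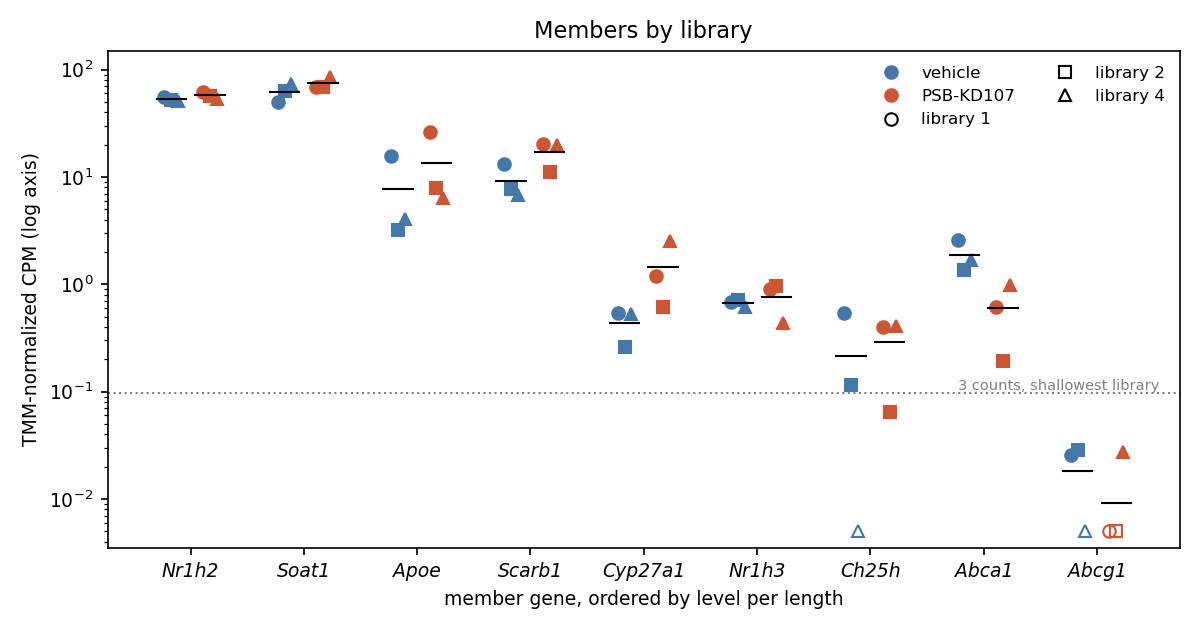
Level of each of the 9 genes in each library, in TMM-normalized CPM on a log axis. Colors mark the groups, symbols the library number, black lines the group means and open symbols at the bottom libraries with 0 counts, and the dotted line is 3 counts in the shallowest library. The vehicle libraries of Abca1 lie between 1.35 and 2.58 CPM, all above the PSB-KD107 libraries, and those of Cyp27a1 lie between 0.258 and 0.536 CPM, all below.

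Ordered by level per length over the 6 libraries, the 9 genes ran from Nr1h2 (mean 16.5 FPKM) over Soat1 (6.96), Apoe (4.97), Scarb1 (1.55), Cyp27a1 (0.434), Nr1h3 (0.286), Ch25h (0.183) and Abca1 (0.119) to Abcg1 (0.00187). In every library Nr1h2 lay above Soat1, Apoe above Scarb1, Scarb1 above Cyp27a1, and Abca1 above Abcg1. The order of Soat1 and Apoe, of Cyp27a1 and Nr1h3, of Nr1h3 and Ch25h, and of Ch25h and Abca1 differed between libraries.

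Of the exporters Abca1 and Abcg1, only Abca1 had a level that could be compared, and it was lower in PSB-KD107-treated myoblasts. Scarb1, which exchanges cholesterol in both directions and had a positive log2 fold change, is described below. Abca1 (ENSMUSG00000015243, chromosome 4 from 53030787 to 53159895) encodes the transporter that loads cholesterol and phospholipid onto apolipoproteins. Its counts were 101, 47 and 54 with vehicle against 31, 6 and 36 with PSB-KD107, which corresponded to 2.58, 1.35 and 1.68 CPM and to 0.616, 0.192 and 0.990 CPM. The groups did not overlap, and the lowest library was PSB-KD107 library 2 (p = 0.1 by a two-sided exact permutation test, which with 3 libraries against 3 cannot go lower). The mean was 1.87 ± 0.637 CPM with vehicle and 0.600 ± 0.399 CPM with PSB-KD107 (mean ± SD of 3 libraries). The log2 fold change was -1.63 (SE 0.60, 95% interval -3.09 to -0.16), or 3.09-fold lower. It did not pass adjustment over all genes (edgeR adjusted p = 0.484, DESeq2 adjusted p = 0.173).

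When 1 library at a time was left out, the log2 fold change of Abca1 stayed between -2.17 and -1.23 in edgeR. Without PSB-KD107 library 4, DESeq2 gave an adjusted p of 0.0249, and with any other library left out it did not pass, with values up to 0.612. At a level of 0.180 ± 0.0615 FPKM with vehicle, Abca1 was under the 1 FPKM that the study's methods set as a minimum, so that the result rests on few counts. In bulk RNA, fewer cells with a transcript and less of it per cell cannot be told apart.

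Abcg1 (ENSMUSG00000024030, chromosome 17 from 31057675 to 31117988), which exports cholesterol to lipoprotein particles and is abundant in macrophages, had 1, 1 and 0 counts with vehicle and 0, 0 and 1 counts with PSB-KD107. All 6 libraries were under the floor of 3 counts, and no difference was detectable at this depth. The sorted cells were therefore also checked for macrophage RNA. The summed level of 11 macrophage markers was between 4.06 and 5.59 CPM with vehicle and between 2.45 and 7.31 CPM with PSB-KD107, 6 of the 11 had no more than 3 counts in any library, and Adgre1, C1qa and C1qb were at 0 in every library. The 10 myoblast markers summed to between 9655 and 10344 CPM with vehicle and between 8337 and 10150 CPM with PSB-KD107. Most of this sum came from a few genes such as Des and Myog, and 7 of the 10 markers had a negative log2 fold change. Pax7, the transcription factor of satellite cells, was measured at 68.8, 49.9 and 59.99 CPM with vehicle and at 34.0, 26.8 and 35.1 CPM with PSB-KD107 (log2 fold change -0.90, SE 0.17, edgeR adjusted p = 0.209, DESeq2 adjusted p = 0.0018). Myog, the factor of myoblast differentiation, had a log2 fold change of -0.49 (edgeR adjusted p = 0.469, DESeq2 adjusted p = 0.203). For Pax7 and Myog every PSB-KD107 library lay below every vehicle library. This held for 2 of the 10 markers, beside 6.59% of all genes tested. The part of these differences in the results for the 9 genes was not tested.

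Cyp27a1 had the largest positive log2 fold change of the 8 tested genes. Cyp27a1 (ENSMUSG00000026170, chromosome 1 from 74713574 to 74737892) encodes the mitochondrial enzyme that makes 27-hydroxycholesterol, an LXR ligand. Its counts were 21, 9 and 17 with vehicle and 60, 19 and 92 with PSB-KD107. These corresponded to 0.536, 0.258 and 0.527 CPM with vehicle and to 1.19, 0.609 and 2.53 CPM with PSB-KD107. At 0.203 FPKM with vehicle and 0.665 FPKM with PSB-KD107, it was under the study's minimum of 1 FPKM. Its difference between the groups thus also rests on few counts. The groups did not overlap (p = 0.1 by the same exact permutation test), although PSB-KD107 library 2 lay close to the highest vehicle library. The log2 fold change was 1.71 (SE 0.61, 95% interval 0.23 to 3.19, edgeR adjusted p = 0.467). Without PSB-KD107 library 4, the highest, it was 1.04. In DESeq2 the adjusted p was 0.205, and it was 0.0348 without PSB-KD107 library 2, the only one of the 6 libraries whose omission brought it under 0.05. PSB-KD107 library 4 also stood apart in Ly6a, the gene of the Sca-1 antigen removed in the sort, with 304 counts (8.36 CPM) against between 0.155 and 1.29 CPM in the other libraries. The 9 fibro-adipogenic and adipocyte markers summed to 10.04 CPM in it, to between 2.42 and 4.34 CPM with vehicle and to 5.78 and 4.11 CPM in PSB-KD107 libraries 1 and 2, with Plin1 at 0 in every library. Most of the sum in library 4 was Ly6a. Apart from Ly6a, library 4 was not the highest for most of them, with Dcn at 1 count and Pparg at 5 counts. Relative to each gene's mean, the median of the 4 tested markers was lowest in this library. It was -1.11 on the log2 scale, against between -0.32 and 0.72 in the other libraries. The part of these markers in the Cyp27a1 values was not tested.

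Ch25h (ENSMUSG00000050370, chromosome 19 from 34473778 to 34475164), which makes 25-hydroxycholesterol, had 21, 4 and 0 counts with vehicle and 20, 2 and 15 counts with PSB-KD107. Both groups held a library at or under the floor, and the interval of the log2 fold change, from -2.44 to 3.26, covered changes in both directions. The log2 fold change was 0.41, and 2.27 without vehicle library 1. Its exons share 11.5% of their bases with Gm26902 on the opposite strand, and the strand setting of the counting is not given in the sources used here.

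Scarb1 and Soat1 handle cholesterol at the cell surface and in the endoplasmic reticulum. Scarb1 (ENSMUSG00000037936, chromosome 5 from 125277087 to 125341094) encodes the HDL receptor SR-BI, which exchanges cholesterol with HDL in both directions. It was measured at 13.1, 7.73 and 6.76 CPM with vehicle and at 20.3, 11.03 and 20.0 CPM with PSB-KD107. The groups overlapped through vehicle library 1 and PSB-KD107 library 2, and the log2 fold change was 0.89 (SE 0.35, 95% interval 0.03 to 1.75, edgeR adjusted p = 0.516). In DESeq2 the adjusted p was 0.266, and it was 0.0198 without vehicle library 1 and 0.0404 without PSB-KD107 library 2.

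Soat1 (ENSMUSG00000026600, chromosome 1 from 156424525 to 156474331) encodes the enzyme that esterifies cholesterol for storage in lipid droplets. Its level was 50.2, 62.8 and 73.1 CPM with vehicle and 68.6, 69.1 and 85.3 CPM with PSB-KD107, and the groups overlapped. The log2 fold change of 0.26 had an interval from -0.15 to 0.67 (edgeR adjusted p = 0.686).

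Apoe differed more between library numbers than between groups. Apoe (ENSMUSG00000002985, chromosome 7 from 19696109 to 19699188) encodes the apolipoprotein that carries exported cholesterol. It was measured at 15.8, 3.21 and 4.09 CPM with vehicle and at 26.3, 7.95 and 6.30 CPM with PSB-KD107, so that the library numbered 1 was the highest of its group in both. The log2 fold change was 0.81 with an interval from -1.17 to 2.79 (edgeR adjusted p = 0.789), and it was -0.14 without PSB-KD107 library 1 and 1.89 without vehicle library 1. With both libraries numbered 1 left out, a choice made after seeing the data, the log2 fold change was 0.95 (SE 0.27, edgeR adjusted p = 0.579). The remaining libraries did not overlap, which 2 libraries against 2 can show without a difference between the groups. This SE cannot be set beside that of all 6 libraries, since the choice followed the values.

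The endothelial marker Vwf was also highest in the libraries numbered 1, at 4.67 CPM with vehicle and 8.31 CPM with PSB-KD107 against between 1.03 and 2.08 CPM in the other libraries. Cd36, a fatty acid transporter, stood at 99.5 and 109 CPM in the libraries numbered 1 and between 9.24 and 25.5 CPM in the others. The summed level of the 6 endothelial markers was 6.07 and 9.12 CPM in the libraries numbered 1 and between 1.52 and 3.19 CPM in the others, and most of it was Vwf. The other markers of the list were low and did not all follow Vwf. Cdh5 had 21, 12 and 5 counts with vehicle and 10, 3 and 25 counts with PSB-KD107, and Pecam1 had 14, 3 and 3 counts and 6, 4 and 11 counts, so that PSB-KD107 library 4 was the highest of its group for both. Kdr had no more than 3 counts in any library and Emcn was at 0 in all of them. CD31, the protein of the endothelial marker Pecam1, was used to remove cells in the sort. The part of these cells in the Apoe values was not tested.

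**Figure D2:**
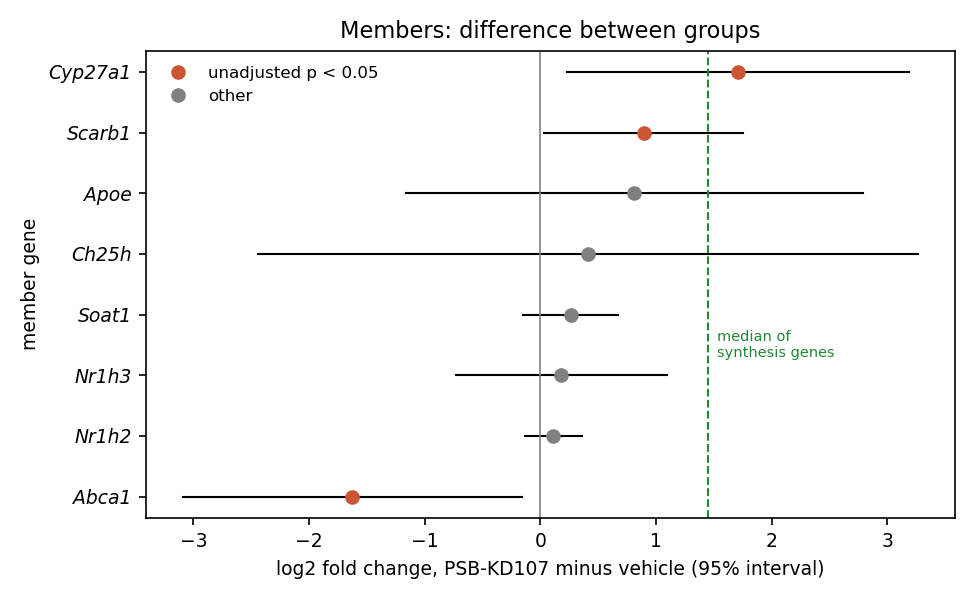
Log2 fold change of the 8 tested genes (PSB-KD107 minus vehicle) with 95% intervals, ordered by size. Red points have an unadjusted p under 0.05, and the dashed line is the median of the synthesis genes at 1.45. Abca1, at -1.63, lies on the other side of 0 from all other genes of the list.

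Of the 8 tested genes, 7 had a positive and 1 a negative log2 fold change, with a median of 0.34, where 7066 of the 14165 genes tested were positive (49.9%) and the median was -0.00074. At an unadjusted p under 0.05 in edgeR there were 2 higher genes, Cyp27a1 and Scarb1, and 1 lower gene, Abca1, against 6.47% of all genes tested that were higher and 2.93% that were lower by the same rule (9.4% in either direction). The libraries of both groups did not overlap for 2 of the 8, Abca1 and Cyp27a1, against 15.8% of all genes tested (9.2% higher and 6.59% lower). After adjustment, 0 of the 8 passed in edgeR, where 0 of 14165 genes did (0%). DESeq2 gave no adjusted p for Ch25h, and 0 of the other tested genes of the list passed in it. Of the 13829 genes with an adjusted p in DESeq2, 410 passed (2.96%, with 2.25% higher and 0.716% lower). Over all genes, 1331 had an unadjusted p under 0.05 in edgeR, and limma-voom called 0.

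These counts depended on single libraries. The number of higher genes at an unadjusted p under 0.05 was 0 without vehicle library 2, without vehicle library 4 or without PSB-KD107 library 4, and 1 without PSB-KD107 library 1. Over all genes tested, the number under this threshold also changed. In the same order, it was 677 of 14573, 683 of 14596, 1528 of 14447 and 1027 of 14373 genes in either direction. It was 1697 of 14394 without vehicle library 1, and 1331 of 14165 with all libraries. Abca1 was no longer under this threshold without vehicle library 1, vehicle library 4 or PSB-KD107 library 1. The median of the 8 was 0.71 without vehicle library 1 and 0.07 without PSB-KD107 library 1.

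The synthesis genes moved more evenly than the 8 tested genes of the list. These 8 include receptors, a storage enzyme and enzymes that make oxysterols beside genes of efflux. Cyp27a1, Nr1h3, Ch25h and Abca1 among them had few counts, so their wider scatter holds more counting error. All 19 genes listed for cholesterol synthesis were higher with PSB-KD107, all 19 had an unadjusted p under 0.05 in edgeR, and their median log2 fold change was 1.45, ranging from 0.99 to 2.04. After adjustment, edgeR called 0 of them and DESeq2 called 14. Over all genes, 6.47% were higher at the unadjusted threshold in edgeR, and DESeq2 called 2.25% higher. Among the synthesis genes with the smallest p-values were Cyp51, Idi1, Msmo1 and Sqle, with log2 fold changes of 1.47, 1.85, 1.56 and 1.23.

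Between the groups, Abca1 and synthesis differed in opposite directions, while Scarb1 and Cyp27a1 differed in the direction of synthesis. Relative to each gene's mean over the 6 libraries, the median of the synthesis genes was -0.10, -1.04 and -0.99 on the log2 scale in vehicle libraries 1, 2 and 4, and 0.98, 0.96 and 0.26 in the PSB-KD107 libraries. The corresponding log2 values of Abca1 were 1.43, 0.50 and 0.82 with vehicle and -0.61, -2.22 and 0.07 with PSB-KD107. Within the vehicle group, library 1 was highest in both measures, and within the PSB-KD107 group, library 4 was lowest in synthesis and highest in Abca1. Pearson's r of Abca1 with single synthesis genes over the 6 libraries was between -0.83 and -0.42, a description only, since the libraries share the group difference and the normalization.

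**Figure D3:**
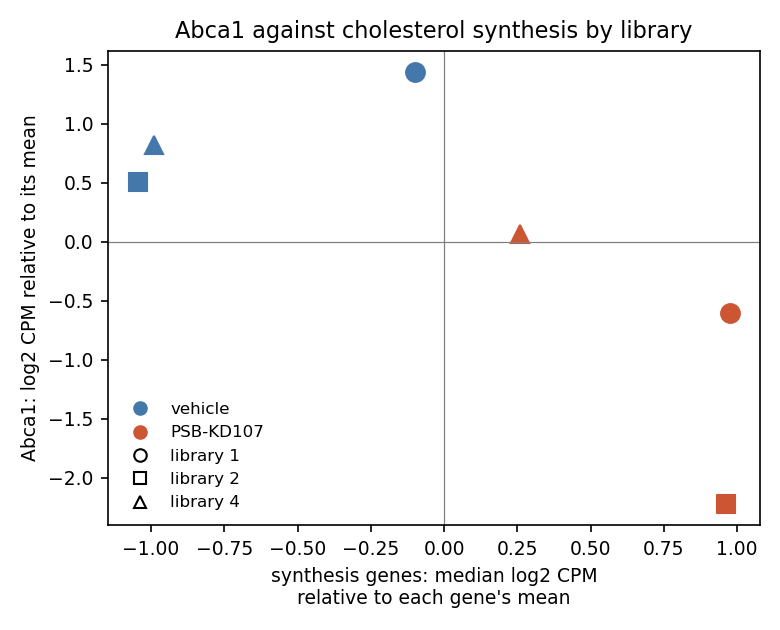
Abca1 level (vertical) against the median level of the 19 synthesis genes (horizontal) in each library, both as log2 CPM relative to the gene's mean over the 6 libraries. Vehicle libraries lie to the left and higher, with synthesis between -1.04 and -0.10, and PSB-KD107 libraries to the right and lower, with synthesis between 0.26 and 0.98.

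Among 10136 genes with a mean of at least 5 CPM, those whose log2 CPM over the 6 libraries was most like that of Abca1 were Mdm1, Carm1, Eef1a1, Polr3gl and G2e3, with r between 0.97 and 0.99. The most opposite were Emc10, Lpcat1, Rnh1, Nfe2l1 and Aldh9a1, with r between -0.99 and -0.98. Their own differences between the groups were smaller than that of Abca1, with log2 fold changes between -0.27 and -0.09 for the first and between 0.11 and 0.65 for the second, and an r over 0.9 was found for 63 genes and under -0.9 for 108.

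The other target genes of LXR did not move one way. Of 17 listed, 12 could be tested, and the signs were positive for 7 and negative for 5 (median log2 fold change 0.22). At an unadjusted p under 0.05 there were 5 higher genes and 2 lower genes, beside 6.47% and 2.93% of all genes tested. The higher genes were Pltp, Fasn, Tlcd1, Scd1 and Abca3, and the lower genes were Abcg4 and Mylip. After adjustment DESeq2 called 3 of the 12, all higher, where 2.25% of its genes were called higher. Abca3 and Mylip stood outside the 5 smallest p-values and were named after their values were seen.

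Pltp, which transfers phospholipids between lipoproteins, was measured at 9.47, 9.48 and 9.74 CPM with vehicle and at 18.1, 25.5 and 19.0 CPM with PSB-KD107, a log2 fold change of 1.12 (SE 0.17, edgeR adjusted p = 0.184, DESeq2 adjusted p = 1.75e-05). Every PSB-KD107 library lay above every vehicle library. Fasn, the fatty acid synthase whose promoter holds the same stretch as that of Abca1, was measured at 257.1, 277.4 and 320.9 CPM with vehicle and at 1005, 1010 and 429.5 CPM with PSB-KD107, for a log2 fold change of 1.52 (SE 0.34, edgeR adjusted p = 0.255, DESeq2 adjusted p = 0.0019). Scd1, the fatty acid desaturase, had a log2 fold change of 2.40 (edgeR adjusted p = 0.467, DESeq2 adjusted p = 0.038). With 1 library left out it ranged from 1.93 to 3.93 in edgeR, and the DESeq2 adjusted p reached up to 0.51. The value of 3.93 was that without vehicle library 1, the highest of the vehicle libraries. Tlcd1, a membrane protein, had a log2 fold change of 0.50. Fasn and Scd1 are also targets of SREBP.

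Srebf1 encodes SREBP1 and shares the hexamers with Abca1 and Fasn, for which it was named after its values were seen. It was measured at 105.0, 80.4 and 84.8 CPM with vehicle and at 83.3, 82.8 and 92.4 CPM with PSB-KD107, and the groups overlapped. Its log2 fold change of -0.06 had an interval from -0.38 to 0.25 (edgeR adjusted p = 0.898), and its sign was positive without vehicle library 1 (0.05). The 3 genes with the shared hexamers thus had log2 fold changes of -1.63 (Abca1), 1.52 (Fasn) and -0.06 (Srebf1).

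Mylip was measured at 32.96, 34.9 and 42.6 CPM with vehicle and at 20.1, 25.8 and 32.2 CPM with PSB-KD107. The groups did not overlap, by a margin of less than 1 CPM, and the log2 fold change was -0.50 (SE 0.20, edgeR adjusted p = 0.528, DESeq2 adjusted p = 0.389). Abcg4, a sterol exporter related to Abcg1, had 16, 13 and 13 counts with vehicle and 9, 6 and 2 counts with PSB-KD107, a log2 fold change of -1.45 (SE 0.49, edgeR adjusted p = 0.443).

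**Figure D4:**
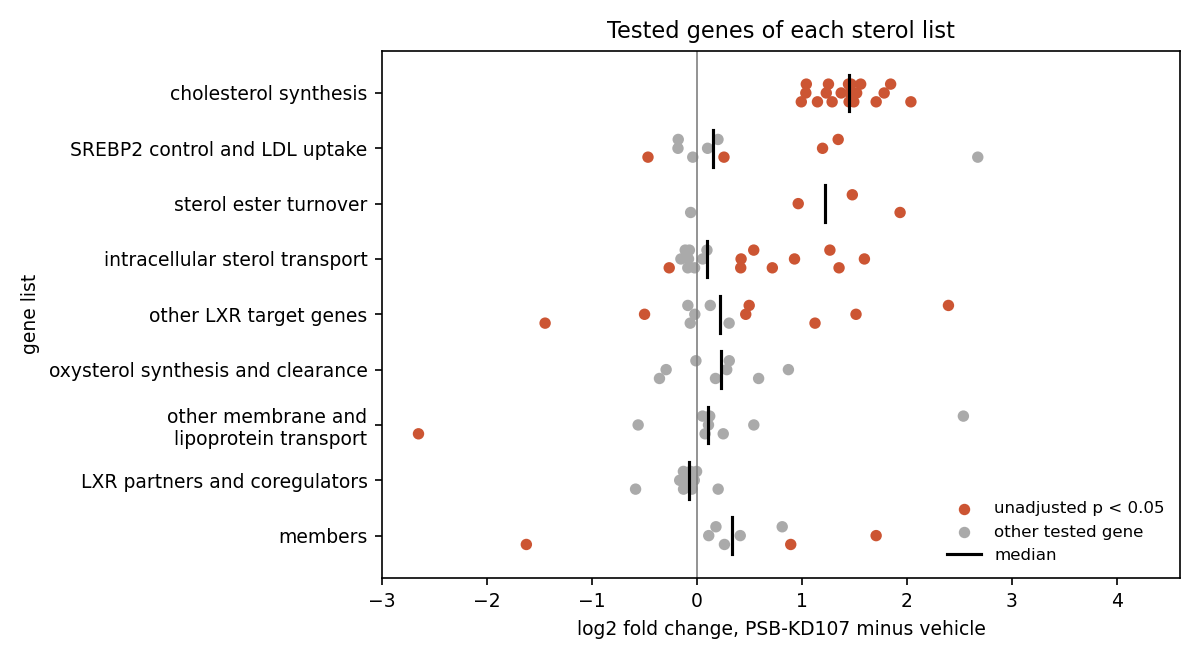
Log2 fold change (PSB-KD107 minus vehicle) of every tested gene in each list, with red points for an unadjusted p under 0.05 and black bars for the median of the list. The 19 synthesis genes lie between 0.99 and 2.04, while the 8 members and the 12 other LXR target genes lie on both sides of 0.

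The partners and coregulators of LXR had 10 tested genes with 1 positive and 9 negative log2 fold changes (median -0.07), and 0 of them had an unadjusted p under 0.05 in edgeR. DESeq2 called 0. The smallest p-value in this list belonged to Rxrb, a partner of LXR, with 51.5, 54.1 and 57.2 CPM under vehicle against 49.9, 49.7 and 45.7 CPM under PSB-KD107. Its log2 fold change was -0.16 (SE 0.09, edgeR adjusted p = 0.644).

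Of the 17 genes of intracellular sterol transport, 10 had a positive and 7 a negative log2 fold change, with a median of 0.09. An unadjusted p under 0.05 was reached by 8 higher genes and 1 lower gene, beside 6.47% and 2.93% of all genes tested. DESeq2 called 3 of them after adjustment, all higher, where 2.25% of its genes were called higher. Npc2, which hands cholesterol on in the lysosome, was measured at 120.2, 89.3 and 85.5 CPM with vehicle and at 268.3, 211.4 and 274.0 CPM with PSB-KD107, for a log2 fold change of 1.35 (SE 0.18, edgeR adjusted p = 0.165, DESeq2 adjusted p = 4.0e-07). Npc1, the membrane protein to which Npc2 passes cholesterol, had a log2 fold change of -0.15 (edgeR adjusted p = 0.895), and was set beside Npc2 after its values were seen.

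Osbpl1a, an oxysterol-binding protein, Vps35, of the retromer, Scarb2, a lysosomal membrane protein, and Tmem97, which binds Npc1, had log2 fold changes of 0.72, 0.42, 0.54 and 0.93. For each of these 4 genes every PSB-KD107 library lay above every vehicle library. They were named for their small p-values, so this adds no separate evidence. In the list it held for 9 of 17 genes, beside 9.2% of all genes tested. The lower gene was Gramd1b, which takes cholesterol from the plasma membrane to the endoplasmic reticulum, with 72.3, 70.3 and 72.1 CPM against 62.9, 54.5 and 61.3 CPM, named after its values were seen.

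In the list of sterol ester turnover, 4 of 6 genes could be tested. Of these, 3 were higher at an unadjusted p under 0.05, all called by DESeq2. Over all genes, 6.47% were higher at this threshold, and DESeq2 called 2.25% higher. Nceh1, which hydrolyzes cholesterol esters, was measured at 33.5, 35.6 and 31.4 CPM with vehicle and at 71.5, 71.7 and 53.0 CPM with PSB-KD107, a log2 fold change of 0.96 (SE 0.15, edgeR adjusted p = 0.184, DESeq2 adjusted p = 6.05e-05). Plin2, the coat protein of lipid droplets, had a log2 fold change of 1.48. Acat2, at 1.94, encodes in the mouse the thiolase at the start of sterol synthesis and not an esterifying enzyme.

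Soat2, the second esterifying enzyme and one named after its values were seen, had 0, 0 and 1 counts with vehicle and 11, 6 and 10 counts with PSB-KD107. These counts were too low for the test, and their ratio per total count was 24.7 with a 95% exact interval for counting error from 4.07 to 1010.

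In the remaining lists few genes stood out. Of 9 tested genes of other sterol transporters and lipoproteins, 1 was lower and 0 were higher at an unadjusted p under 0.05. The shares over all genes tested were 2.93% and 6.47%. The lower gene was Cav1, the protein of the cholesterol-rich membrane pits called caveolae. It was measured at 28.2, 15.2 and 11.2 CPM under vehicle against 2.90, 4.97 and 0.825 CPM under PSB-KD107. Every PSB-KD107 library lay below every vehicle library, and the log2 fold change was -2.65 (SE 0.69, edgeR adjusted p = 0.326, DESeq2 adjusted p = 0.0016) and -3.28 without PSB-KD107 library 2. Of 8 tested genes of oxysterol synthesis and clearance, 0 had an unadjusted p under 0.05 in edgeR and DESeq2 called 0, and the smallest p-value was that of Fdx1, the electron donor of mitochondrial P450 enzymes such as Cyp27a1, with a log2 fold change of 0.59 (edgeR adjusted p = 0.587).

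Of the 10 genes of SREBP2 control and lipoprotein uptake, an unadjusted p under 0.05 was reached by 3 higher genes and 1 lower gene. The shares over all genes tested were 6.47% and 2.93%. The higher genes included Insig1, which retains SREBP in the endoplasmic reticulum, and Mbtps2, a protease that cuts SREBP, with log2 fold changes of 1.35 (1.97 without vehicle library 1) and 0.26. The lower gene was Mbtps1, the other protease of this step, with a log2 fold change of -0.47.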

How the data were processed

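Poly(A) RNA of 6 libraries was sequenced in paired-end mode by the authors, aligned to mm10 with STAR, and deposited as raw counts per gene without normalization. The counting program, annotation and strand setting are not given in the sources used here. The table numbers the libraries 1, 2 and 4 and the sample records 1, 2 and 3, so libraries 4 were assigned to a group only, and p-values measure the spread between these libraries.

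Positions and exon lengths came from GENCODE M21 (GRCm38), which holds 46574 of 47069 genes. Genes were filtered with filterByExpr, scaled with TMM and tested with edgeR 4.0.16 (quasi-likelihood, R 4.3.3), with Benjamini-Hochberg adjustment over 14165 genes at 0.05. Standard errors are the log2 fold change divided by the root of F. FPKM is CPM per kilobase of exon. DESeq2 1.42.0, limma-voom (limma 3.58.1), RLE factors, other filters, a robust fit, replicate blocks and libraries left out were alternatives, and the scripts were tested on simulated data.

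The members and lists were chosen with earlier results of these data known. Genes named were all members, up to 5 of each list with the smallest p-values under 0.05 (otherwise the smallest), and the genes most like and most opposite to Abca1. No protein sequences were used here. Some genes that this rule names are not reported here.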

Additional observations from a re-analysis of the deposited data

How the results depend on the processing

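The count of 0 genes called by edgeR over all genes was also 0 with RLE factors, the study's FPKM minimum of 1, limma-voom and the robust fit, and with each library left out in turn (0 to 0). It was 8 with no filter on low counts and 410 with DESeq2, which with single libraries left out gave 599, 178 and 160 without vehicle library 1, 2 or 4, and 283, 768 and 674 without PSB-KD107 library 1, 2 or 4. Of the 9 genes, 2 were higher and 1 was lower at an unadjusted p under 0.05. With the FPKM minimum, which leaves out Abca1 and Cyp27a1, these counts were 0 and 0, with limma-voom 1 gene was higher, and with both libraries numbered 1 left out 0 were lower. With each library left out the count of higher genes ranged from 0 to 2 in edgeR and from 0 to 3 in DESeq2, and that of lower genes from 0 to 1 in both. Over all genes, the number under this threshold in either direction then ranged from 677 to 1783 in edgeR and from 1005 to 2463 in DESeq2. The median log2 fold change of the members was 0.59 with limma-voom, and ranged from 0.073 to 0.71 in edgeR and from 0.089 to 0.71 in DESeq2 with each library left out (0.60 without PSB-KD107 library 2 in DESeq2). For cholesterol synthesis it ranged from 1.28 to 1.79 in edgeR and from 1.28 to 1.78 in DESeq2, and for the other LXR target genes from 0.18 to 0.34 in edgeR and from 0.17 to 0.33 in DESeq2. The cause of these changes was not tested, except that fewer genes or libraries enter some of these fits.

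The main fit did not pair the libraries by number, and which library came from which mouse is not given in the sources used here. The correlation of deviations from the group means was 0.63 between the libraries numbered 1, 0.47 between those numbered 2 and -0.13 between those numbered 4. For libraries with different numbers it ranged from -0.69 to 0.62 (vehicle library 4 with PSB-KD107 library 2), with a mean of -0.17. In a fit of the 4 libraries with numbers 1 and 2 and the replicate block, edgeR called 2456 of 14400 genes. At an unadjusted p under 0.05, 4 of the 9 genes were higher, beside 4410 of the 14400 genes in either direction. This fit has 1 residual degree of freedom per gene. After adjustment over all genes, 3 of the 9 passed in it, with log2 fold changes of -2.28 for Abca1 (edgeR adjusted p = 0.0041), 0.96 for Apoe (0.0069) and 0.58 for Scarb1 (0.016). With a replicate block in the fit of all 6 libraries, 0 genes were called. At an unadjusted p under 0.05, 4 of the 9 genes were higher, beside 1726 of 14165 genes in either direction. In that fit the log2 fold change of Abca1 was -1.80 (edgeR adjusted p = 0.344). That of Apoe was 0.88 (SE 0.20, edgeR adjusted p = 0.290), against 0.81 (SE 0.81) without a block. In the block on 4 libraries the log2 fold change of Ch25h was -0.49, against 0.41 without a block.

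The sign of some small differences turned. With a library left out, the log2 fold change ranged from -0.14 to 2.27 for Ch25h, from -0.14 to 1.89 for Apoe and from -0.014 to 0.46 for Nr1h3 in edgeR, and down to -0.16, -0.12 and -0.0088 in DESeq2. That of Srebf1 ranged from -0.15 (without vehicle library 2) to 0.054 (without vehicle library 1) and was 0.077 without both libraries numbered 1. Depth limited Abcg1, Ch25h, Nr1h3, Abca1, Cyp27a1 and Soat2, whose libraries held few counts.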
